A study of Mus musculus with 24 samples.

Results

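The transcripts described here encode 9 secreted or surface proteins with which the small intestinal epithelium keeps bacteria at a distance: Lyz1, Mmp7, Defa17, Defa24 and Mptx2, which are products of Paneth cells, and Reg3a, Reg3b, Reg3g and Lypd8, which are made mainly by enterocytes. They were chosen by name, and all 9 were found among the 39056 genes of the deposited count table. Their levels were read in the 12 CD45- libraries of the 24 in the series, 3 for each of 4 genotypes. CD45- libraries hold the live single cells of the mouse ileum that did not stain for CD45, the surface protein of leukocytes. They were sorted after Peyer's patches had been taken out and 50% of the detached epithelial cells had been mixed back with the cells of the lamina propria, so epithelium, endothelium and stroma are present together.

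The genotypes combined Hoil1+/+ or Hoil1-/- with Il4ra f/f or Il4ra ΔIEC. Hoil1, the other name of Rbck1, encodes a subunit of the linear ubiquitin ligase complex, and the targeted allele leaves a reduced amount of an N-terminal part of the protein. All mice were C57BL/6 and carried floxed Il4ra, the chain shared by the IL-4 and IL-13 receptors. ΔIEC mice also carried Vil1cre, in which the villin promoter drives Cre in epithelial cells, so that Il4ra stays intact in other cells. The labels give ages of 9.0 to 10.3 weeks. They do not name the animals, so p-values measure the spread between libraries. Replicates are given below in the order 1, 2, 3, and replicate 3 of Hoil1-/- Il4ra f/f, which the authors left out of their own tests, is shown with the other libraries but was not used in the tests unless stated. The design asks what loss of HOIL1 does, what loss of Il4ra in epithelium does, and whether each depends on the other.

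Paneth cells sit at the base of the crypt and release granules into its lumen. Lyz1, the Paneth cell lysozyme, cuts bacterial peptidoglycan. Defa17 and Defa24 encode α-defensins, which are stored as proforms and permeabilise bacterial membranes once Mmp7, a matrix metalloproteinase, has cleaved them. Mptx2, a mucosal pentraxin, belongs to the family of C-reactive protein. Reg3b and Reg3g are C-type lectins that bind peptidoglycan, Reg3a is their close relative, and all are known to be induced by microbes through MyD88 and IL-22. Lypd8 is a GPI-anchored protein that binds flagella and keeps flagellated bacteria off the surface.

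The genes lie at separate loci in GRCm38, apart from the defensins on chromosome 8 and the Reg3 genes on chromosome 6. Defa17 (ENSMUSG00000060208.5) runs from 21655780 to 21656735 and Defa24 (ENSMUSG00000064213.5) from 21734494 to 21735471, both on the plus strand. Reg3b (ENSMUSG00000071356.7, 78370657 to 78373466) and Reg3a (ENSMUSG00000079516.2, 78380709 to 78383827) lie on the plus strand, and Reg3g (ENSMUSG00000030017.2, 78466269 to 78468872) on the minus strand. The remaining genes are Lyz1 (ENSMUSG00000069515.6) on chromosome 10 at 117287797 to 117292868, Mmp7 (ENSMUSG00000018623.9) on chromosome 9 at 7692090 to 7699585, Mptx2 (ENSMUSG00000079180.4) on chromosome 1 at 173274382 to 173277777, and Lypd8 (ENSMUSG00000013643.13) on chromosome 11 at 58379043 to 58390728.

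How far reads can tell the defensins apart bears on their values, so the last 108 coding bases, which end with the stop codon, are shown for the 2 members and for Defa30, the gene whose levels followed the Paneth transcripts most closely. They are exonic, on the plus strand of GRCm38 at chr8:21656534-21656641 for Defa17, chr8:21735270-21735377 for Defa24 and chr8:21135396-21135503 for Defa30. Capitals in Defa17 and Defa30 mark bases that differ from Defa24, and capitals in Defa24 mark bases that differ from Defa17.
Defa17: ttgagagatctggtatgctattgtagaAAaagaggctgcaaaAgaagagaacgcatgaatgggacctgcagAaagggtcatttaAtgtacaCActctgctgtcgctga
Defa24: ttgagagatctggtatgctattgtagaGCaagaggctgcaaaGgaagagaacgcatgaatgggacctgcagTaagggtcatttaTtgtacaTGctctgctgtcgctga
Defa30: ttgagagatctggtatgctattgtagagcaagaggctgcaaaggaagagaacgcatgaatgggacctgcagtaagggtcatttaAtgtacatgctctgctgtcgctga

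Over their whole coding sequences of 282 bases, Defa17 and Defa24 differed at 12 bases (95.7% identical), and Defa17 and Defa30 at 8 (97.2% identical). Defa17 and Defa3 had the same coding sequence. Of the 248 stretches of 150 bases in Defa17 transcripts, 220 (88.7%) also occurred in Defa3, whereas none of the stretches of the other 8 genes occurred in another gene. Counts of Defa17 are therefore uncertain between the 2 genes, and whether reads that match both were counted at all is not known. Only exact matches of 150 bases were compared. The study also kept shorter trimmed reads, and their sharing was not examined for any of the 9 genes. Defa3 itself was counted at 0.449 to 55.5 CPM, that is, counts scaled to a common library size with TMM factors. Lyz1 and the macrophage lysozyme Lyz2 differed at 22 of 447 coding bases (95.1% identical), and no 150-base stretch of Lyz1 occurred in Lyz2.

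The levels of the Reg3 genes correlated in part, so the bases 150 to 21 upstream of their RefSeq starts (GRCm38.p6) are shown as well, each 5′ to 3′ on the strand of its gene: chr6:78370735-78370864 (plus) for Reg3b, chr6:78380559-78380688 (plus) for Reg3a and chr6:78468895-78469024 (minus) for Reg3g. The Reg3b window lies within the gene span given above, which begins at 78370657, because RefSeq places the start at 78370885. Capitals mark matches to TATAAA, the TATA box core, or to TTCNNNGAA, the core recognised by STAT proteins.
Reg3b: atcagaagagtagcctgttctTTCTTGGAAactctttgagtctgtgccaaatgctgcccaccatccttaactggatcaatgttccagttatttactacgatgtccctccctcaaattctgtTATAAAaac
Reg3a: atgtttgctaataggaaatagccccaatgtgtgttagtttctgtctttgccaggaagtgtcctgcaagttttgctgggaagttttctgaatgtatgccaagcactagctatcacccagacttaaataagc
Reg3g: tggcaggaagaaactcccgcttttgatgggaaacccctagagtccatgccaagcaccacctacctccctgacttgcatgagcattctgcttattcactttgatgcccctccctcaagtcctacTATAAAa

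RefSeq windows were matched for 7 of the 9 genes. Searching both strands, TATAAA was found 29 to 24 bases before the start of Reg3b, 27 to 22 before that of Reg3g, and 123 to 118 and 26 to 21 before that of Mmp7, and TTCNNNGAA 129 to 121 bases before that of Reg3b. These motifs do not overlap, and CTTTGAA, a core of TCF/LEF sites, was found in no window. Of 32851 windows of the same length, 6.91% held TATAAA, 3.53% TTCNNNGAA and 2.16% CTTTGAA. Such a match is a description of the letters and not of binding.

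The CD45- libraries held 6028275 to 68345191 counts. Rbck1 measured 85.5 to 122 CPM in the 6 libraries with intact Hoil1, whereas the 6 Hoil1-/- libraries gave no more than 8.18, as labelled (log2 fold change -4.23, SE 0.33, edgeR quasi-likelihood adjusted p = 0.00106). Ptprc, which encodes CD45, reached at most 18.4 CPM. The share of epithelium differed between libraries of one genotype. Epcam, an adhesion molecule of all intestinal epithelial cells, ranged from 179 to 1456 CPM, the summed CPM of 13 enterocyte markers from 561 to 52080, and that of 12 endothelial markers from 2787 to 18658. In each of the 3 genotypes in which 2 libraries shared a labelled age, the library of the other age stood apart: its enterocyte sum was 2541 CPM against 48016 and 52080 in Hoil1+/+ Il4ra ΔIEC, 2013 against 40912 and 29514 in Hoil1-/- Il4ra f/f, and 16030 against 1291 and 561 in Hoil1-/- Il4ra ΔIEC. In Hoil1+/+ Il4ra f/f, replicate 1 (16170 CPM) stood above replicates 2 and 3 (1580 and 2204 CPM). For this reason each gene is given in CPM and per count of Epcam. In sorted mixtures fewer cells of a type and less RNA per cell cannot be told apart.

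Per kilobase of transcript, Defa24 was the most abundant of the 9, with a median level of 3289 CPM per kb over the 12 libraries. Lyz1 (896), Lypd8 (689) and Reg3b (462 CPM per kb) followed, then Defa17 (227), Reg3g (167), Mmp7 (88.9) and Mptx2 (80.9). Reg3a came last at 14.1 CPM per kb. Neighbours in this order overlapped widely, since the level of Lyz1 alone spanned 64.0 to 9002 CPM per kb. The lowest and highest libraries differed 141-fold in CPM for Lyz1, 140.2-fold for Defa17, 101-fold for Mptx2, 90.5-fold for Defa24 and 17.9-fold for Mmp7, and 9.77-fold for Lypd8. Much of this spread lay between libraries of one genotype: the within-genotype SD of Lyz1 was 1.61 on the log2 scale, against 1.87 over all 12.

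Among the Paneth cell products, Lyz1 measured 11369.6, 1240.2 and 678 CPM in Hoil1+/+ Il4ra f/f, 1096, 1121 and 2020.4 in Hoil1+/+ Il4ra ΔIEC, 1141, 1682 and 859 in Hoil1-/- Il4ra f/f, and 80.8, 106 and 1437 in Hoil1-/- Il4ra ΔIEC. One library, Hoil1+/+ Il4ra f/f replicate 1, was far above all others, replicates 1 and 2 of Hoil1-/- Il4ra ΔIEC were far below, and the remaining 9 lay within 678 to 2020.4 CPM, with all genotypes overlapping. Per Epcam count the values were 14.8, 4.75 and 1.56, then 0.772, 1.04 and 4.09, then 0.784, 1.25 and 1.59, and 0.212, 0.589 and 2.16 in the same order of groups, so that the high library stayed high and the low libraries moved closer to the rest.

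Defa24 was highest in the same library as Lyz1. Like Lyz1 it was low in Hoil1-/- Il4ra ΔIEC replicates 1 and 2, but lowest in replicate 2. It measured 7475, 1037 and 648 CPM in Hoil1+/+ Il4ra f/f, 747, 1769 and 1489 in Hoil1+/+ Il4ra ΔIEC, 2513, 3729 and 1516 in Hoil1-/- Il4ra f/f, and 111, 82.6 and 1266 in Hoil1-/- Il4ra ΔIEC. In Hoil1-/- mice the 3 f/f libraries thus all lay above the 3 ΔIEC libraries, unlike for Lyz1, while the Hoil1+/+ groups overlapped. Per Epcam count these groups overlapped, with 1.73, 2.77 and 2.81 in f/f against 0.291, 0.461 and 1.90 in ΔIEC. Defa17, whose counts are uncertain as described, gave 469, 59.9 and 51.3 CPM, then 45.3, 144 and 87.3, then 167, 335 and 102, and 15.4, 3.35 and 92.9 in the same order. Per Epcam count it gave 0.610, 0.230 and 0.118, then 0.0319, 0.134 and 0.177, then 0.114, 0.249 and 0.189, and 0.0404, 0.0187 and 0.139, with all groups overlapping. Its counts stayed in proportion to those of Defa24, with 7.21 to 24.7 Defa24 counts per Defa17 count (median 15.0).

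Defa24 was also the defensin with the most counts. The table lists 39 α-defensin genes, 17 of them pseudogenes by symbol, and 26 had a count in some CD45- library and 12 in all of them. Of the summed defensin counts of a library, Defa24 took 36.3% to 53.6% (median 42.7%) and Defa17 1.58% to 5.87%. These are shares of assigned counts. Stretches shared with other genes were examined for the members only, and how reads that match several genes were counted is not known. The summed level of all α-defensins ran from 212 CPM in Hoil1-/- Il4ra ΔIEC replicate 2 to 20567 CPM in Hoil1+/+ Il4ra f/f replicate 1.

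Mptx2 stood at 340.2, 62.9 and 65.5 CPM in Hoil1+/+ Il4ra f/f, 43.0, 42.4 and 58.4 in Hoil1+/+ Il4ra ΔIEC, 96.2, 349 and 88.9 in Hoil1-/- Il4ra f/f, and 4.77, 3.47 and 102 in Hoil1-/- Il4ra ΔIEC. Within Hoil1+/+ mice every f/f library was above every ΔIEC library, and within Hoil1-/- mice ΔIEC replicate 3 broke that order. Per Epcam count it gave 0.442, 0.241 and 0.151, then 0.0303, 0.0394 and 0.118, then 0.0661, 0.259 and 0.165, and 0.0125, 0.0194 and 0.153, again with no overlap between the Hoil1+/+ groups.

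Mmp7, the enzyme that activates the prodefensins, varied least among the Paneth transcripts. It measured 335, 51.9 and 92.3 CPM in Hoil1+/+ Il4ra f/f, 77.5, 97.6 and 77.5 in Hoil1+/+ Il4ra ΔIEC, 134, 220.3 and 147 in Hoil1-/- Il4ra f/f, and 49.3, 18.7 and 251 in Hoil1-/- Il4ra ΔIEC. Per Epcam count its Hoil1+/+ values were 0.435, 0.199 and 0.213 in f/f, all above 0.0546, 0.0908 and 0.157 in ΔIEC, whereas in Hoil1-/- mice 0.0918, 0.164 and 0.272 in f/f overlapped with 0.129, 0.105 and 0.377 in ΔIEC. Hoil1-/- Il4ra ΔIEC held 1.64 to 5.71 Lyz1 counts per Mmp7 count. The other groups held 5.84 to 8.55 (Hoil1-/- Il4ra f/f), 11.5 to 26.1 (Hoil1+/+ Il4ra ΔIEC) and 7.35 to 34.0 (Hoil1+/+ Il4ra f/f). Defa24 was low relative to the enzyme in Hoil1-/- Il4ra ΔIEC too, at 2.26 to 5.04 counts per Mmp7 count against 7.02 to 22.3 in Hoil1+/+ Il4ra f/f.

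**Figure D1:**
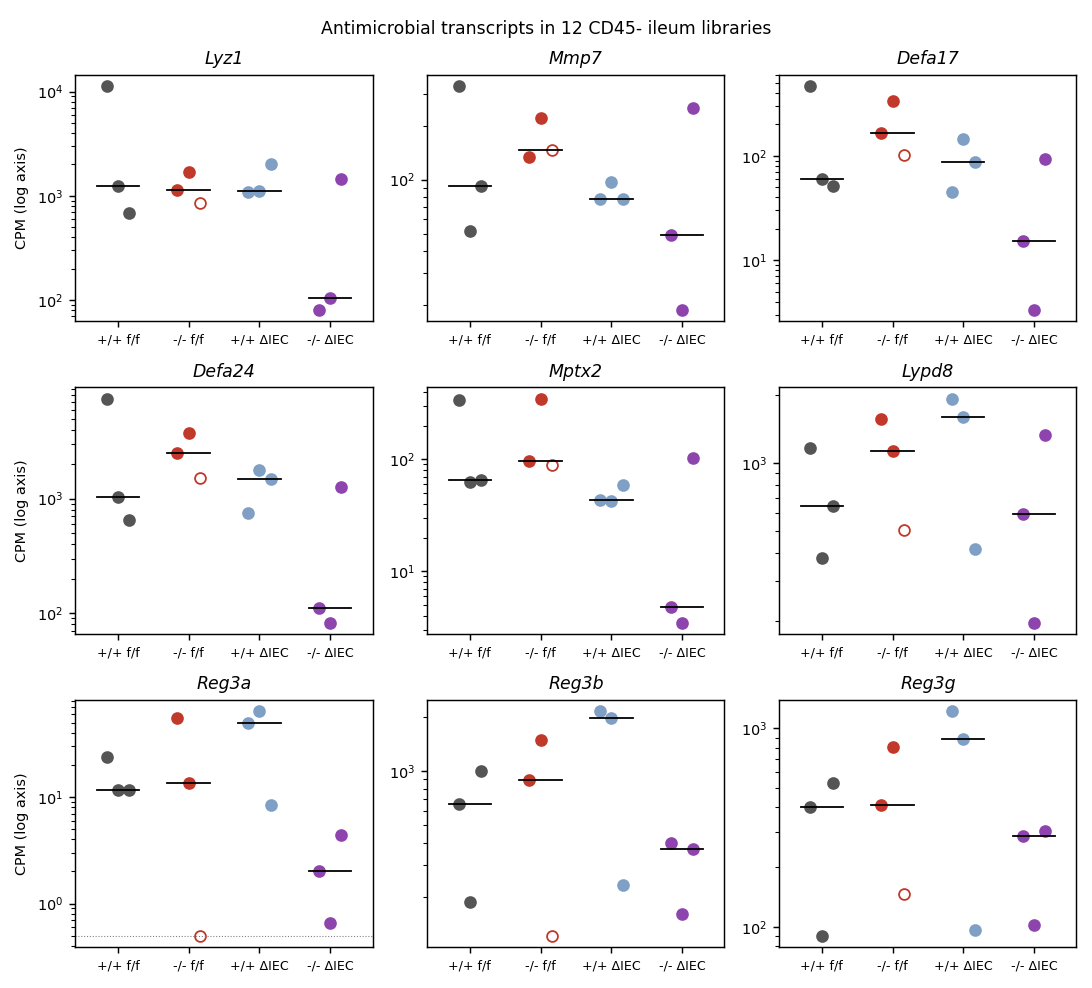
Level of each of the 9 transcripts in CPM (log axis) in the 12 CD45- libraries by genotype. Points are libraries, horizontal lines the medians of 3, and the open circle is the library the authors left out, with levels of 0.5 CPM or less drawn at 0.5. In the Paneth panels the 11369.6 CPM of Lyz1 in 1 Hoil1+/+ Il4ra f/f library and the 80.8 and 106 CPM in 2 Hoil1-/- Il4ra ΔIEC libraries frame the rest.

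Set against each other within a library, Lyz1 was lowest relative to Defa24 in Hoil1-/- Il4ra f/f, and the other genotypes overlapped. Hoil1-/- Il4ra f/f libraries held 0.454, 0.451 and 0.566 Lyz1 counts per Defa24 count, compared with 1.52, 1.20 and 1.05 in Hoil1+/+ Il4ra f/f, 1.47, 0.634 and 1.36 in Hoil1+/+ Il4ra ΔIEC, and 0.727, 1.28 and 1.13 in Hoil1-/- Il4ra ΔIEC. The 3 values of Hoil1-/- Il4ra f/f were therefore the lowest of the 12. The ratio is free of library size and of Epcam, and it was singled out after the values had been seen, so it is given without a test.

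The enterocyte products had another pattern. Reg3b measured 656, 187 and 999 CPM in Hoil1+/+ Il4ra f/f, 2146, 1972 and 232 in Hoil1+/+ Il4ra ΔIEC, 899, 1490.3 and 122 in Hoil1-/- Il4ra f/f, and 399, 161 and 369 in Hoil1-/- Il4ra ΔIEC. Reg3g ran beside it at 403, 90.2 and 533, then 1218, 889 and 96.5, then 412, 802 and 146, and 286, 103 and 304 CPM in the same order. In the Hoil1+/+ Il4ra ΔIEC and Hoil1-/- Il4ra f/f groups both genes were high in the 2 libraries with enterocyte sums of at least 29514 CPM and low in the third. The other 2 groups did not follow this order: Hoil1+/+ Il4ra f/f replicate 3 held 999 CPM of Reg3b at an enterocyte sum of 2204 CPM and replicate 1 656 CPM at 16170, and Hoil1-/- Il4ra ΔIEC replicate 1 held 399 CPM at 1291 and replicate 3 369 CPM at 16030.

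Per Epcam count, Reg3b came to 0.852, 0.716 and 2.30 in Hoil1+/+ Il4ra f/f, 1.51, 1.83 and 0.470 in Hoil1+/+ Il4ra ΔIEC, 0.617, 1.11 and 0.226 in Hoil1-/- Il4ra f/f, and 1.04, 0.899 and 0.554 in Hoil1-/- Il4ra ΔIEC. All groups overlapped on this scale. Reg3g per Epcam count gave 0.523, 0.346 and 1.23, then 0.858, 0.827 and 0.195, then 0.283, 0.596 and 0.270, and 0.748, 0.572 and 0.456, again with overlap of all groups. The 2 genes kept step, and each Reg3g count came with 0.838 to 2.41 counts of Reg3b.

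Reg3a was scarce and differed from its relatives. It measured 23.8, 11.7 and 11.6 CPM in Hoil1+/+ Il4ra f/f, 49.2, 63.6 and 8.48 in Hoil1+/+ Il4ra ΔIEC, 55.5, 13.5 and 0 in Hoil1-/- Il4ra f/f, and 2.03, 0.653 and 4.39 in Hoil1-/- Il4ra ΔIEC. The 3 libraries of Hoil1-/- Il4ra ΔIEC, which rest on 40, 16 and 27 counts, all lay below the 6 Hoil1+/+ libraries. The library at 0 is the one the authors left out, and 0 counts there allow up to 0.395 CPM by counting error (3 counts). Per Epcam count Reg3a gave 0.0309, 0.0447 and 0.0267, then 0.0347, 0.0591 and 0.0172, then 0.0381, 0.0101 and 0, and 0.00532, 0.00365 and 0.00659, so Hoil1-/- Il4ra ΔIEC stayed below all Hoil1+/+ libraries when scaled to epithelium.

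Lypd8 tracked the amount of epithelium most closely. Its levels of 1167, 381 and 644 CPM in Hoil1+/+ Il4ra f/f, 1921, 1590.2 and 416 in Hoil1+/+ Il4ra ΔIEC, 1568, 1125 and 506 in Hoil1-/- Il4ra f/f, and 591, 197 and 1322 in Hoil1-/- Il4ra ΔIEC spanned 9.77-fold. Per Epcam count they spanned 2.37-fold, the narrowest range of the 9, with 1.52, 1.46 and 1.48 in Hoil1+/+ Il4ra f/f (1.49 ± 0.0280, SD, n = 3), 1.35, 1.48 and 0.842 in Hoil1+/+ Il4ra ΔIEC, 1.08, 0.837 and 0.936 in Hoil1-/- Il4ra f/f (0.950 ± 0.121, SD, n = 3), and 1.55, 1.10 and 1.98 in Hoil1-/- Il4ra ΔIEC. The f/f groups did not overlap, with the Hoil1-/- libraries lower. In the edgeR fit per Epcam, which leaves out replicate 3 of Hoil1-/- Il4ra f/f, this difference was -0.63 (log2, SE 0.65, adjusted p = 0.428), with 0.0% of genes called.

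**Figure D2:**
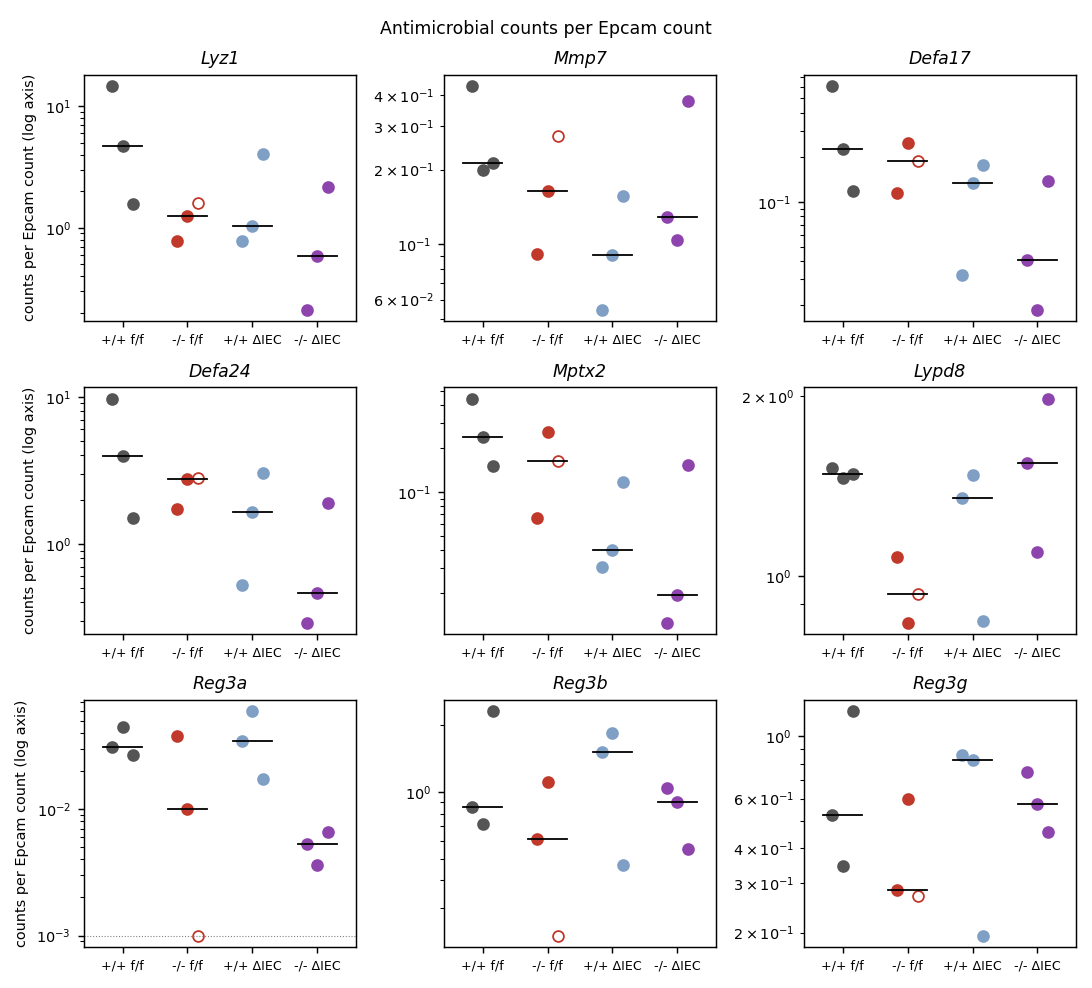
Counts of each transcript per count of Epcam (log axis) in the same 12 libraries, with points, median lines and the open circle as for CPM, and values of 0.001 or less drawn at 0.001. Lypd8 stays between 0.837 and 1.98 in all libraries, while Lyz1 spans 0.212 to 14.8 and Reg3a is lowest in Hoil1-/- Il4ra ΔIEC apart from the left-out library at 0.

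The 5 Paneth transcripts thus formed a block apart from the enterocyte transcripts. Over the 12 libraries, each of which brings its own depth and cell mixture to all 9 genes, log2 levels of the 5 Paneth transcripts correlated with r of 0.78 to 0.98 in their 10 pairs (median 0.90), and of 0.66 to 0.95 per Epcam count. The 3 Reg3 genes correlated with r of 0.66 to 0.96 in CPM and 0.30 to 0.88 per Epcam count. Between Paneth and Reg3 genes r was 0.23 to 0.53 in the 15 pairs, and -0.45 to 0.21 per Epcam count. Lypd8 lay nearer to the Reg3 genes (0.74 to 0.85) than to the Paneth genes (0.49 to 0.67). Per Epcam count Lypd8 correlated with the Reg3 genes at 0.33 to 0.50. On both scales this lies within the range among the Reg3 genes, which thus did not stand apart from Lypd8. All ratios to Epcam share their denominator, which alone can make them correlate. These coefficients are descriptions and carry no test.

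Among 9680 genes with a mean of at least 10 CPM, those most like the mean of the 5 Paneth transcripts were Defa30 (r = 0.989 over 12 libraries), the lectin Itln1 (0.985), AY761184 (0.971), Defa34 (0.970) and Defa22 (0.969), and the same 5 led per Epcam count. Among those most like the mean of the Reg3 genes were Slc16a5 (0.966), Scrn2 (0.958), Wipf2 (0.954) and Aldh1l1 (0.948). Slc16a5 and Aldh1l1 were among the leading 5 per Epcam count too. Most of the genes closest to the Paneth transcripts were other α-defensins, and none of the 4 genes named for the Reg3 genes was a defensin or a lectin.

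**Figure D3:**
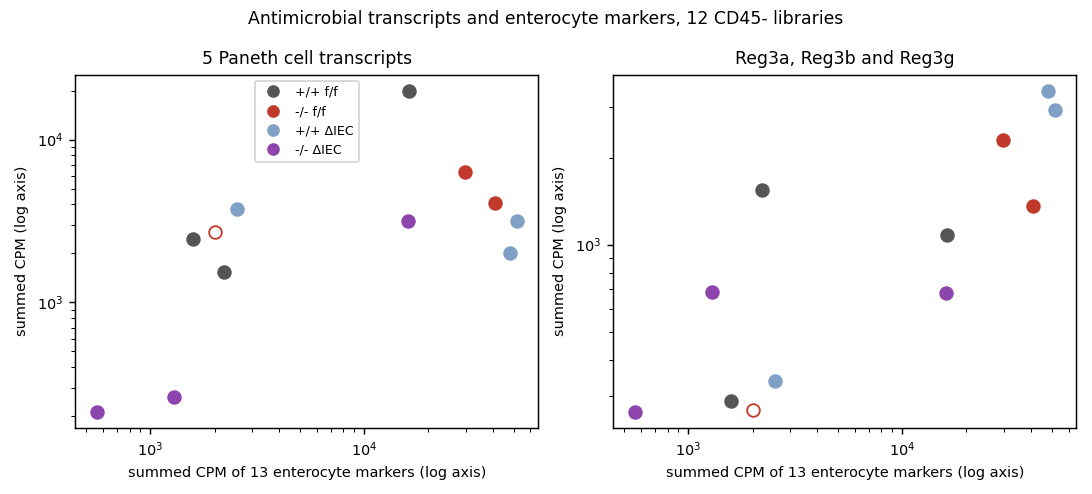
Summed CPM of the 5 Paneth transcripts and of the 3 Reg3 transcripts against the summed CPM of 13 enterocyte markers (log axes), 1 point a library, coloured by genotype, the open circle being the left-out library. The Reg3 sums are highest, at 3414 and 2924 CPM, in the libraries with the highest enterocyte sums, while the highest Paneth sum, 19988 CPM, lies at an enterocyte sum of 16170 CPM.

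Loss of HOIL1, averaged over the Il4ra genotypes, was tested first, with 1 edgeR quasi-likelihood fit over the 11 libraries. None of the 9 genes passed an adjusted p of 0.05, against 3 (0.0182%) of 16453 genes tested; 1 of the 9, and 868 of all genes, had an unadjusted p under 0.05, and DESeq2 also called 0 (1.02% of all genes). The gene with the unadjusted p was Reg3a, with a log2 fold change of -1.50 (SE 0.63, adjusted p = 0.926). Lyz1 had the lowest estimate, -1.53 (SE 0.90, adjusted p = 0.964), and Mmp7 the highest, 0.24. The median was -0.48 for the 9 and -0.08 for all genes. Enterocyte, endothelial and goblet marker lists had 0 calls here as well.

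In Il4ra f/f mice alone the 9 estimates for HOIL1 loss ran from -1.69 (Lyz1, SE 1.37) to 1.13 (Reg3a, SE 0.88), and 7 of 9 were above 0. None passed (adjusted p of 0.534 to 1.0, edgeR; 0 of the 9 at an unadjusted p under 0.05), against 6 genes (0.0365%) of 16453. DESeq2 called 0 of the 9 and 3.73% of all genes. All 13 enterocyte markers had positive estimates in the same comparison, with a median of 2.38, and all 12 endothelial markers negative ones, with a median of -1.24. The part of that difference in cell mixture in the estimates of the Reg3 genes and Lypd8 was not tested. Per Epcam count all 9 estimates were below 0, as was the median of all genes (-1.94), and 8 of the 9 lay above that median.

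In Il4ra ΔIEC mice HOIL1 loss gave the estimate furthest from 0 for Reg3a, at -4.12 (SE 0.92, unadjusted p = 0.0010, adjusted p = 0.603 by edgeR). Reg3b followed with -2.17 (SE 0.79, adjusted p = 0.603), and Reg3g with -1.61 (SE 0.84, adjusted p = 0.633). With edgeR's quasi-likelihood test none of the 9 passed, 2 had an unadjusted p under 0.05, and 1 gene (0.00608%) passed among all 16453. DESeq2 called Reg3a (-4.13, adjusted p = 0.000639) and 0.839% of all genes. The likelihood ratio test and the exact test for pairs of groups in edgeR also called Reg3a, and 0.377% and 0.243% of all genes. Enterocyte markers moved alongside, with all 13 estimates negative and a median of -3.15. Per Epcam count Reg3a stood at -2.83 (SE 0.81, adjusted p = 0.238), while Reg3b and Reg3g were at -0.61 and -0.08.

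Loss of epithelial Il4ra, averaged over the Hoil1 genotypes, went with negative estimates for all 9 genes and a median of -1.30, against 0.06 for all genes. The lowest estimates were those of Mptx2 at -2.14 (SE 0.85), Defa24 at -1.93 (SE 0.81), Defa17 at -1.91 (SE 0.81) and Lyz1 at -1.51 (SE 0.86), with adjusted p of 0.808, 0.808, 0.808 and 0.826 in edgeR. Reg3a was at -1.30 (SE 0.61, adjusted p = 0.808) and Mmp7, the fifth Paneth product, at -0.82 (SE 0.63, adjusted p = 0.882). The first 3 had an unadjusted p under 0.05, and 0 of the 9 passed the adjusted threshold by edgeR or DESeq2. No gene of the 16453 passed by edgeR (0.0%; 971 at an unadjusted p under 0.05), and 0.966% by DESeq2. Reg3b, Reg3g and Lypd8 lay between -0.34 and -0.05. In the same contrast the median estimate was -1.83 for 11 tuft cell markers (9 at an unadjusted p under 0.05), -0.97 for 10 goblet cell markers, -0.53 for 13 enterocyte markers and 0.72 for 12 endothelial markers, and the part of the cell mixture in the estimates of the 9 genes was not tested.

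Within Hoil1+/+ mice, Il4ra loss gave negative estimates for the 5 Paneth genes (median -1.22, lowest -1.72 for Mptx2) and positive ones for the 4 enterocyte genes (median 1.14, highest 1.33 for Reg3a). All adjusted p lay between 0.875 and 0.974 in edgeR, with 0 of the 9 at an unadjusted p under 0.05, and 0.0% of 16453 genes called (724 at an unadjusted p under 0.05). DESeq2 called 0 of the 9 and 0.103% of all genes. Enterocyte markers had a median of 2.25. Per Epcam count Reg3b was at -0.02 and Reg3a at 0.12, and Mptx2 at -2.15 (SE 0.96, adjusted p = 0.498).

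Within Hoil1-/- mice, all 9 estimates for Il4ra loss were negative, with a median of -1.90 against 0.17 for all genes. Reg3a was at -3.93 (SE 0.95, adjusted p = 0.174), Defa17 at -2.72 (SE 1.21, adjusted p = 0.279), Defa24 at -2.64 (SE 1.21, adjusted p = 0.284) and Mptx2 at -2.57 (SE 1.25, adjusted p = 0.306). None passed in edgeR's quasi-likelihood test, 3 had an unadjusted p under 0.05, and 7 genes (0.0425%) of 16453 passed, with 2904 at an unadjusted p under 0.05. DESeq2 called Reg3a (-3.93, adjusted p = 0.00226) and 7.18% of all genes. The likelihood ratio test and the exact test also called Reg3a, and 3.99% and 2.36% of all genes. Of the enterocyte markers 13 of 13 were negative here, with a median of -3.56. The Reg3b estimate of -1.90 (SE 0.83) became -0.05 per Epcam count, and the Lyz1 estimate of -1.35 (SE 1.27) likewise became -0.05. Reg3a remained at -2.21 (SE 0.84, edgeR adjusted p = 0.074) and the median of the 5 Paneth genes was -1.35 on that scale, where the median of all genes was 2.31.

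**Figure D4:**
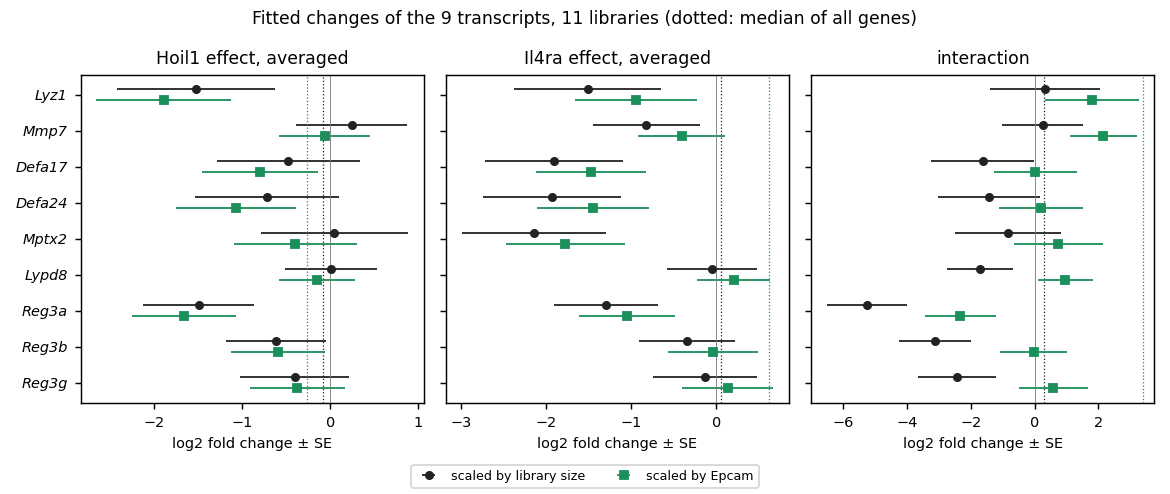
Estimated log2 fold changes of the 9 transcripts with their SE for HOIL1 loss and Il4ra loss, each averaged over the other genotype, and for their interaction, scaled to library size (circles) and to Epcam (squares), with dotted lines at the median of all 16453 genes. No point passed an adjusted p of 0.05; the interaction of Reg3a, at -5.26 per library size, lies furthest from 0.

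The interaction asks whether the 2 genotypes act independently. It was lowest for Reg3a, at -5.26 (SE 1.25, unadjusted p = 0.0015, adjusted p = 0.121 by edgeR), and then for Reg3b, at -3.11 (SE 1.13, adjusted p = 0.183). Among the 11 libraries tested, the 3 that lacked both HOIL1 and epithelial Il4ra had the 3 lowest levels of Reg3a. None of the 9 passed with edgeR's quasi-likelihood test, 2 had an unadjusted p under 0.05, and 0.0% of 16453 genes passed (3409 at an unadjusted p under 0.05). DESeq2 called Reg3a and Reg3b, with estimates of -5.32 and -3.21, and 8.91% of all genes. The likelihood ratio test called Reg3a and 7.43% of all genes. Enterocyte markers had a median interaction of -5.59. Per Epcam count the Reg3b interaction was -0.03 (SE 1.05), that of Reg3a -2.33 (SE 1.12, adjusted p = 0.0918) and that of Mmp7 2.16 (SE 1.06, adjusted p = 0.0963).

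When Epcam counts replaced library size in the fit over all genes, 0 of the 9 passed in any of the 7 contrasts in edgeR, with 0 to 3 at an unadjusted p under 0.05. No gene passed in 6 of the contrasts (0.0%), and 7202 (43.8%) passed in the interaction, where the median of all genes was 3.39. On this scale a gene that is not epithelial takes the inverse of the Epcam level, and all 9 members lay below the interaction median.

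Each ratio to Epcam was also tested alone, by an exact two-sided permutation of genotype labels within the strata of the other gene (200 arrangements of the 11 libraries). Of 18 such tests, without adjustment, 2 had p under 0.05. Reg3a per Epcam was lower in Hoil1-/- mice, at 0.303-fold (log2 difference -1.72, exact permutation p = 0.025). With all 12 libraries it was 0.130-fold (exact permutation p = 0.015), but the added library holds 0 counts of Reg3a. The ratio of that library, and with it the 0.130-fold value, depends on the constant added to counts. Among the 11 libraries the Il4ra f/f groups overlapped, with 0.0381 and 0.0101 in Hoil1-/- against 0.0267 to 0.0447 in Hoil1+/+. In Il4ra ΔIEC all Hoil1-/- libraries lay below all Hoil1+/+ libraries. Mptx2 per Epcam was lower in Il4ra ΔIEC mice, at 0.230-fold (log2 difference -2.12, exact permutation p = 0.035; p = 0.02 with all 12). The next lowest were Defa24 (0.321-fold, p = 0.06), Defa17 (0.317-fold, p = 0.065) for Il4ra and Lyz1 (0.300-fold, p = 0.08) for HOIL1 in the same exact permutation test. The p for Reg3a rose to 0.0625 without Hoil1-/- Il4ra f/f replicate 2 and was 0.05 without Hoil1+/+ Il4ra f/f replicate 2, and that for Mptx2 reached 0.15 without Hoil1-/- Il4ra f/f replicate 2.

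Other genes of the same trade were counted from lists drawn up by name. Of 24 other Paneth cell products tested, 0 passed in any of the 7 contrasts by edgeR when scaled to library size, and 9 had an unadjusted p under 0.05 for Il4ra loss averaged over the Hoil1 genotypes, all lower, with a list median of -1.77. Itln1, a galactofuranose-binding lectin, measured 3765, 608 and 547 CPM in Hoil1+/+ Il4ra f/f and 107, 46.2 and 1091 in Hoil1-/- Il4ra ΔIEC, which repeats the course of Lyz1, and its Il4ra estimate was -1.81 (SE 0.78, edgeR adjusted p = 0.808). Defa30 was at -1.90 (SE 0.80, adjusted p = 0.808) in the same contrast. Over the 19 α-defensins tested the median was -1.90, and 7 had an unadjusted p under 0.05. Per Epcam, 2 of the 24 were called in the interaction (Nupr1 and Copz2, both higher), where 43.8% of all genes were called and the median of all genes was 3.39, and 0 in the other 6 contrasts.

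Of 24 other epithelial antimicrobial proteins, 0 passed by edgeR in any contrast scaled to library size, although 11 had an unadjusted p under 0.05 for HOIL1 loss in Il4ra f/f, 10 of them higher, and the list median there was 2.24. Those with the highest mean levels were Zg16, which binds Gram-positive bacteria in mucus, the galectin Lgals4, the scavenger receptor Dmbt1 and Pigr, the receptor that carries IgA into the lumen. Pigr had an estimate of 1.27 (SE 0.49, adjusted p = 0.361) for HOIL1 loss in f/f and -1.16 (SE 0.45, adjusted p = 0.628) in ΔIEC, and an interaction of -2.43 (SE 0.66, adjusted p = 0.129). Dmbt1 lay between 268 and 1697 CPM with all genotypes overlapping. Per Epcam, 4 of the 24 were called in the interaction, 3 higher and 1 lower (Lcn2, Sprr2a3, Reg1 and Dmbt1), against the same 43.8%.

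Of 20 genes of the signals known to act on these proteins, 0 passed by edgeR in any contrast scaled to library size, and per Epcam 12 of 20 passed in the interaction, all higher, where 43.8% of all genes passed. Socs3, a feedback inhibitor induced by STAT3, measured 741, 1961 and 776 CPM in Hoil1+/+ Il4ra f/f and 37.7, 107 and 286 in Hoil1-/- Il4ra f/f, with no overlap, and its estimate there was -4.04 (SE 0.86, adjusted p = 0.145). The endothelial sums of the same libraries ran from 4266 to 15443 against 2787 to 10152 CPM, the last value being that of the left-out library. In the fit of this comparison all 12 endothelial markers had negative estimates (median -1.24), as had all 10 stromal markers (median -1.02). The part of the cell mixture in the Socs3 estimate was not tested. Il22ra1, the IL-22 receptor chain of epithelium, was at 37.7, 7.83 and 5.64 CPM in Hoil1+/+ Il4ra f/f and 7.97, 3.43 and 11.7 in Hoil1-/- Il4ra ΔIEC, and was named after its values were seen. Of 17 regulators of Paneth and other secretory cells 0 passed scaled to library size and 4 in the interaction per Epcam (Creb3l1, Dll4, Xbp1 and Dll1, all higher). Fzd5, a Wnt receptor needed for Paneth cell maturation, was nearest for HOIL1 loss averaged over Il4ra scaled to library size, at -0.80 (SE 0.25, adjusted p = 0.737).

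Scaled to library size, the lists for enterocytes, crypt and stem cells, goblet cells and enteroendocrine cells had 0 calls in any contrast by edgeR, and calls occurred in the list for tuft cells, the chemosensory cells that release IL-25. Trpm5, their cation channel, measured 235, 259 and 3.03 CPM in Hoil1-/- Il4ra f/f and at most 17.6 CPM elsewhere. It passed for HOIL1 loss in Il4ra f/f over the 11 libraries (4.58, SE 0.44, edgeR adjusted p = 0.00756) and no longer when the left-out library at 3.03 CPM was included (4.01, SE 1.05, adjusted p = 0.324). The SE of the 9 antimicrobial genes in this contrast over 11 libraries, 0.77 to 1.37, were wider than that of Trpm5.

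A further group of secreted and surface proteins, singled out after their values had been seen, was high in Hoil1-/- Il4ra f/f libraries, the left-out one included. Mptx1, a second mucosal pentraxin, stood at 105, 57.6 and 59.6 CPM there and at no more than 5.18 CPM in the other 9 libraries, whereas Mptx2 overlapped between genotypes. Mptx1 counts per Mptx2 count were 1.09, 0.165 and 0.670 in Hoil1-/- Il4ra f/f and at most 0.0386 in Hoil1+/+ Il4ra f/f. In Hoil1-/- Il4ra ΔIEC this ratio was 0.489, 0 and 0.0350, so the Hoil1-/- groups overlapped. The estimate of Mptx1 for HOIL1 loss in f/f was 4.78 (SE 1.37), with an adjusted p of 0.289 by edgeR and 0.0209 by DESeq2.

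Ang4, an antimicrobial ribonuclease, measured 1068, 1374 and 981 CPM in Hoil1-/- Il4ra f/f and 8.25 to 731 CPM elsewhere, with no overlap. Retnlb, a resistin-like protein of goblet cells, measured 9.82, 62.6 and 24.9 CPM there, 0 counts in all 6 Hoil1+/+ libraries, and 2.23, 0 and 1.63 CPM in Hoil1-/- Il4ra ΔIEC. Sprr2a3, a small proline-rich protein, stood at 156, 242 and 53.9 CPM in Hoil1-/- Il4ra f/f and at most 24.4 CPM elsewhere. Its estimate for HOIL1 loss in f/f was 5.62 (SE 1.33), with an adjusted p of 0.205 by edgeR and 0.000676 by DESeq2. These genes were picked for this order, and in the comparison edgeR called 0.0365% of genes and DESeq2 3.73%.

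**Figure D5:**
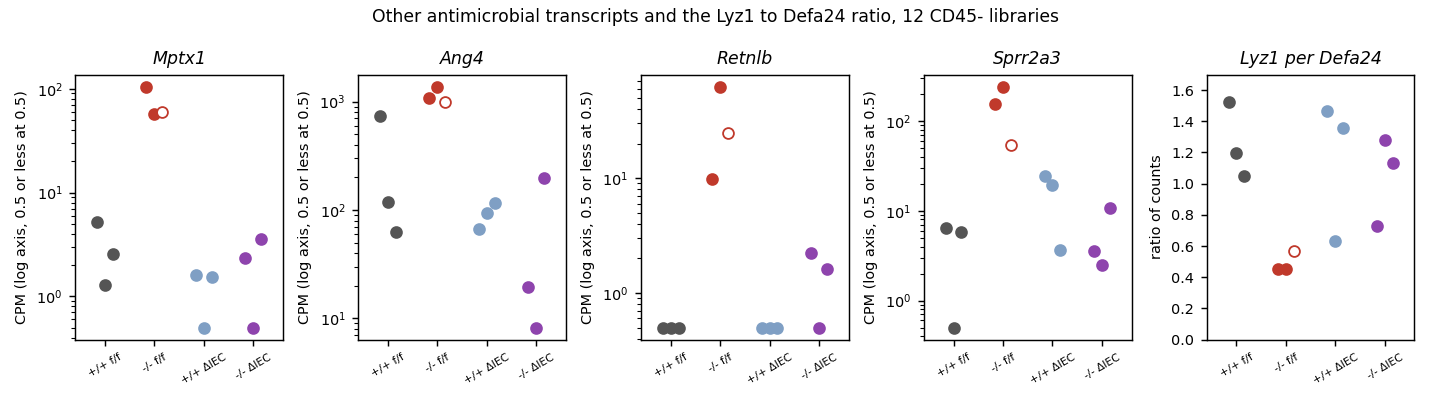
Levels in CPM (log axis, 0.5 or less drawn at 0.5) of Mptx1, Ang4, Retnlb and Sprr2a3, and the ratio of Lyz1 to Defa24 counts (linear axis), in the 12 CD45- libraries by genotype. Points are libraries, and the open circle is the left-out one. The 3 Hoil1-/- Il4ra f/f libraries hold the highest level in each of the 4 gene panels and the lowest ratios, 0.451 to 0.566.

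In the 12 CD45+ libraries, which hold the leukocytes (Ptprc 227 to 663 CPM), the 9 transcripts were scarce. Lyz1 had a median of 45.6 CPM, Defa24 of 24.6, Reg3b of 14.7 and Lypd8 of 9.97, and Reg3a exceeded 3 counts in 3 libraries. Medians in CD45- cells were 24.8-fold (Lyz1) to 88.7-fold (Lypd8) higher, and that of Epcam was 17.6-fold higher. Reg3a is not in this range because its CD45+ median was 0. TMM factors were computed within each fraction, so these folds compare levels that were scaled separately. Lyz2 behaved the other way, at 964 to 4947 CPM in CD45+ and at most 23.3 CPM in CD45- libraries. The highest CD45+ values of Lyz1 (244 CPM), Defa24 (328 CPM) and Mptx2 (53.9 CPM) were all in Hoil1-/- Il4ra f/f replicate 1. The authors left this CD45+ library out of their own tests too. The next highest values of these genes were 76.1, 59.1 and 3.08 CPM, the last also in a left-out library. Reg3b (89.9 CPM) and Reg3g (42.5 CPM) were highest in Hoil1+/+ Il4ra ΔIEC replicate 1.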

How the data were processed

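RNA-seq was made from poly(A) RNA of 24 sorted ileal samples. The deposited table holds whole-number counts per gene, which per the labels and the study's methods the authors obtained by trimming, alignment with STAR to mm10 and counting with featureCounts on Ensembl genes. Their settings for multi-mapping reads and strand are not given in the sources used here. Genes were named through GENCODE M21 (GRCm38) for 38872 of 39056 identifiers, and 15867 genes had no count. No pair of replicates agreed within sampling noise (24 pairs compared by chi-square, lowest value per degree of freedom 39.6).

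The 11 CD45- libraries that the authors kept were fitted together with edgeR 4.0.16 in R 4.3.3 (TMM scaling, filterByExpr at its settings of 10 counts per library and 15 in total, quasi-likelihood F tests, Benjamini-Hochberg adjustment over 16453 genes, threshold 0.05, 7 contrasts). A second fit used the Epcam count of each library in place of its size. For edgeR estimates the SE was worked back from the test, as the absolute log2 fold change divided by the square root of F. Single ratios, log2((count + 0.5)/(Epcam count + 0.5)), were tested by exact permutation within strata. Levels are TMM-scaled CPM, and likeness used log2(CPM + 1). Alternatives were DESeq2 1.42.0, likelihood ratio and exact tests, other scalings and filters, all 12 libraries, Epcam as a covariate, a pseudocount of 5, and leaving out each library. Scripts were tested on simulated data. Intervals and floors cover counting error only. The members and lists were chosen with earlier results of these data known.

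Named genes were the 9 members, Rbck1, Epcam and Ptprc, list genes with an adjusted p under 0.05, otherwise at most 4 of a list by mean CPM, and the 5 genes most alike in pattern, of which 1 is not reported here. Others are said to be named after their values were seen. Sequences came from GRCm38 and RefSeq (GRCm38.p6). No protein sequences were used here.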

Additional observations from a re-analysis of the deposited data

How the results depend on the processing

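Of the counts of members called, 225 were within 1.5 times the main count under the alternatives and 24 were not. DESeq2, the likelihood ratio test and the exact test for pairs of groups each called 1 member, Reg3a, for HOIL1 loss in Il4ra ΔIEC and for Il4ra loss in Hoil1-/-, where the quasi-likelihood test called 0. In the interaction DESeq2 called 2 (Reg3a and Reg3b) and the likelihood ratio test 1 (Reg3a). Leaving out single libraries gave 0 to 1 members for Il4ra loss in Hoil1-/- (Reg3a without Hoil1-/- Il4ra f/f replicate 2, adjusted p = 0.0339 by edgeR, with 3.29% of all genes called) and 0 to 2 for the interaction (Reg3a without that library, 4.13% of all genes; Reg3a and Reg3b without Hoil1+/+ Il4ra ΔIEC replicate 3, 7.48%). Without Hoil1-/- Il4ra f/f replicate 2 the lone library of its genotype is assumed to vary like those of the other groups. Per Epcam it gave 0 to 2 for Il4ra loss in Hoil1-/- (Defa17 and Mptx2 without Hoil1-/- Il4ra ΔIEC replicate 3, with 42.6% of all genes) and 0 to 2 for the interaction (Mmp7 and Reg3a without Hoil1+/+ Il4ra ΔIEC replicate 3, with 61.2% of all genes). The exact permutation tests of ratios to Epcam had 1 member with p under 0.05 for HOIL1 (0 to 2 without single libraries) and 1 for Il4ra (3 with all 12 libraries, 0 to 2 without single libraries). The cause of these changes was not tested.

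Of the values of single members, 205 kept direction and side of the threshold, 13 came to pass it, 9 no longer passed it and 4 changed direction. Those 4 were Reg3b, whose estimate for Il4ra loss in Hoil1-/- turned from -1.90 to 0.15 when scaled by 12 epithelial markers and to 0.32 with Epcam as a covariate, and whose interaction turned from -3.11 to 0.31 and 0.57 under the same settings. DESeq2 called more genes in all, for example 1182 against 7 for Il4ra loss in Hoil1-/- and 613 against 6 for HOIL1 loss in f/f. No paired analysis was possible because the replicate numbers follow the order of deposit and any 2 genotypes share at most 1 labelled age. Reg3a, at 16 to 40 counts in Hoil1-/- Il4ra ΔIEC, is the member most limited by depth.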
